A study of Mus musculus with 12 samples.

Results

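The comparison described here set MLO-Y4 cells cultured at μ-g against MLO-Y4 cells cultured at 1-g, both inside the bore of the same superconducting magnet. Its members were chosen by treatment label alone, 3 arrays of the LG-HMF μ-g group and 3 of the LG-HMF 1-g group, 6 of the 12 arrays of the series, and no measured value entered the choice. LG-HMF stands for large gradient high magnetic field: the gradient of the field pulls on water and other diamagnetic matter, so that apparent weight depends on the position in the bore. At the μ-g position (12 T) the magnetic force opposes weight, at the 1-g position (16 T) the field is strong but no net force adds to weight, at the 2-g position (12 T) the force adds to weight, and control cells stood outside the magnet. All cells were kept for 48 h at the same temperature and CO2 level, in wells seeded after trypsin treatment, and the plates of the 3 magnet positions sat on one holder. The field is stronger at 1-g than at μ-g, so that the loss of apparent weight and the weaker field cannot be told apart in this comparison. MLO-Y4 is an osteocyte-like clone of mouse long bone (labelled as 14 days of age) immortalised with a viral oncogene, and each group is therefore repeated culture of 1 clone. The question was how large a change of each transcript the 3 against 3 arrays leave room for when weight is removed within the bore, and for which gene groups the limit is tight or loose.

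Osteocytes are the bone cells held responsible for sensing load. Stretch-gated channels, integrins, the actin cytoskeleton, connexin hemichannels and the transcriptional co-activator YAP carry mechanical signals in these cells, and secreted factors such as sclerostin and RANKL pass them on to osteoblasts and osteoclasts. The hypoxia response is a second programme of interest: hypoxia-inducible factors (HIFs) are destroyed when oxygen lets the prolyl hydroxylases mark them, and when oxygen is short they switch on genes of glycolysis, pH control and mitophagy through a short core motif in promoters and enhancers.

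The arrays of both groups were alike as a whole. Array medians of the log2 values ran from 7.04 to 7.12 over the 12 arrays, and Pearson's r over the clusters of a pair of arrays was 0.997 to 0.998 for the 6 pairs of arrays within a group and 0.997 to 0.999 for the 9 pairs between μ-g and 1-g; clusters are no independent replicates. The median gene had an SD of 0.08 on the log2 scale at μ-g, 0.08 at 1-g, 0.07 at 2-g and 0.07 in the control. Biological replicates is the label given to the 3 samples of each group. Whether these came from separate runs of the magnet is not stated, so p-values measure the spread between these samples, which may be technical.

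No gene passed the test for a difference between μ-g and 1-g. Of 19938 genes, 0 were higher and 0 lower (0% each) at an adjusted p under 0.05 in limma, and the lowest adjusted p was 0.9999. No gene passed the thresholds of the study, a fold change of 1.5 with an unadjusted P under 0.05 (0%). At unadjusted P alone 460 genes passed (2.31%), of which 273 were higher (1.37%) and 187 lower (0.938%) at μ-g, and in 1123 genes (5.63%) the 3 values of one group all lay above the 3 of the other. The median difference over all genes was 0.01 on the log2 scale, with 53.5% of genes above 0. The extremes were both small: Ak4, a mitochondrial adenylate kinase that HIF-1 induces, was lowest at −0.45, and Dppa3, a maternal chromatin factor of oocytes and early embryos, was highest at 0.42.

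A p that misses the threshold does not show that levels were the same, so the room for change was tested directly. Each gene was held within a stated fold when its difference was significantly inside both ends of that range (the pair of one-sided limma tests against the ends, larger p, Benjamini-Hochberg over all genes, adjusted p under 0.05). The narrowest bound was a ratio of 5 to 4, a log2 difference of 0.32 either way. By this test 19109 genes (95.8%) were held within the narrow bound, 19906 (99.8%) within 1.5-fold and all 19938 (100%) within 2-fold. The outer limit, the end of a gene's 95% interval that lies farther from no change, was 1.15-fold for the median gene, 1.24-fold at the 90th percentile, 1.28-fold at the 95th and 1.39-fold at the 99th. It was under 1.5-fold for 99.7% of genes and at least 2-fold for 1 gene, Ak4, at 2.08-fold. These intervals hold gene by gene and are not widened for the number of genes. A limit is called wide when it lies far from no change, whether through a wide interval or through a large difference. The test of being held is less strict than the 95% interval, because each of its ends is tested one-sided. Ak4 was therefore held within 2-fold (one-sided limma tests, adjusted p = 0.0361) although its outer limit was 2.08-fold. Adjustment changed these p-values little, as nearly all genes passed.

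**Figure D1:**
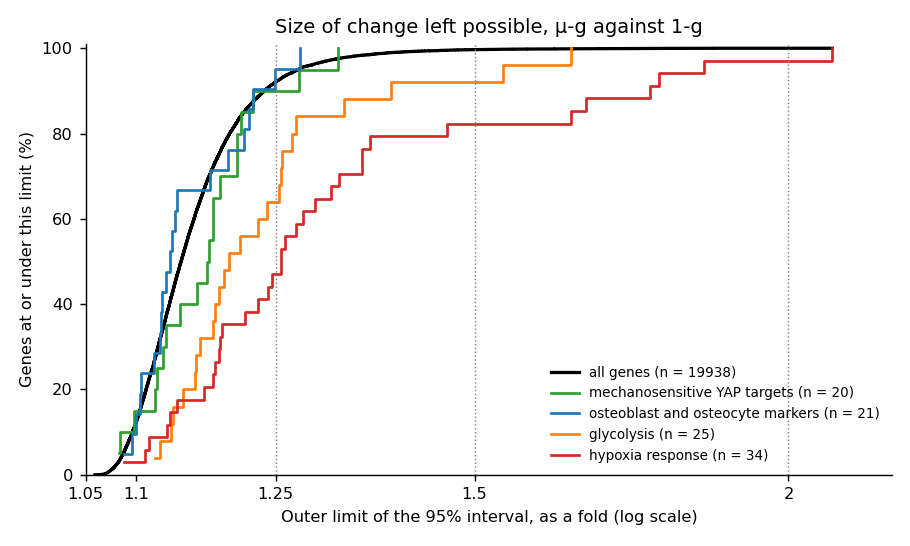
Share of genes (y axis, %) whose outer limit of the 95% interval for μ-g against 1-g lies at or under a given fold (x axis, log scale), for all 19938 genes and 4 gene lists, with dotted lines at the 3 bounds tested. The curve of all genes reaches 92.1% at the narrow bound, while the hypoxia response lies to the right with 6 of its 34 members beyond 1.5-fold.

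The limit depended little on the level of the gene. The median outer limit was 1.13-fold in the lowest tercile of genes by level, 1.16-fold in the middle tercile and 1.14-fold in the highest. A narrow limit at a low level is not evidence about a transcript, because a probe set that sees no transcript at all also varies little. The table gives no detection call, and the lowest tercile, under a level of 6.38, may hold such genes. Summarised array signals also tend to understate true fold changes, so each limit is a limit on the array signal.

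**Figure D2:**
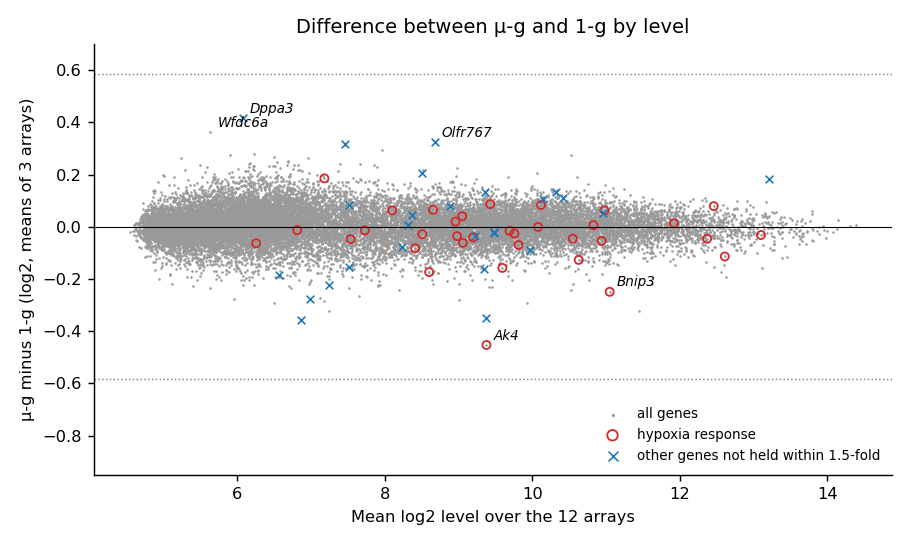
Difference between the means of the 3 μ-g and the 3 1-g arrays (y axis, log2) against the mean level over the 12 arrays (x axis, log2) for each of the 19938 genes; red circles are the 34 hypoxia-response genes, blue crosses the other genes not held within 1.5-fold, and dotted lines mark 1.5-fold. Every point lies between the dotted lines, from −0.45 (Ak4) to 0.42 (Dppa3).

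The gene groups were then compared by how tightly their members were held. The 39 lists hold 925 measured genes, of which 917 were held within 1.5-fold and 854 within the narrow bound. In 34 of the 39 lists every measured member was held within 1.5-fold. The 5 exceptions were the hypoxia response (28 of 34 held), glycolysis (24 of 25), inflammatory cytokines and chemokines (35 of 36), the ER stress and amino acid response (30 of 31) and the oxidative stress list of NRF2 targets (25 of 26). With the replicate number as a block 4 of these 5 lists were held in full, and the hypoxia response in 33 of 34. None of the 925 genes passed at adjusted p.

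**Figure D3:**
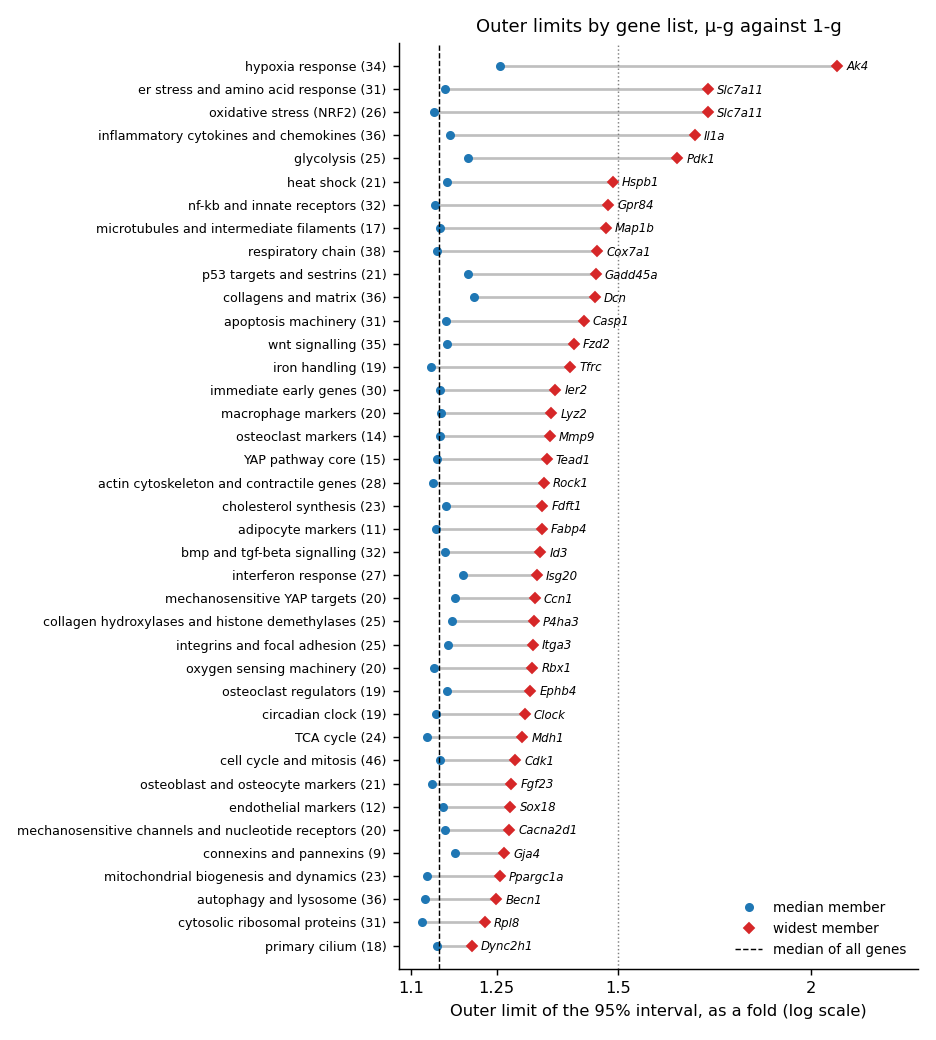
Outer limit of the 95% interval for μ-g against 1-g as a fold (x axis, log scale) for each of 39 gene lists (number of measured members in brackets): blue dots are the median member, red diamonds the widest member with its name, the dashed line the median of all genes (1.15-fold) and the dotted line 1.5-fold. The widest member is the one whose outer limit lies farthest from no change. In this fit of 12 arrays the hypoxia response has both the highest median (1.26-fold) and the farthest limit (Ak4, 2.08-fold). The primary cilium list has the lowest red diamond.

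The hypoxia response had the highest median outer limit of the 39 lists in the fit of 12 arrays. In the fit of the 6 magnet arrays its median limit was 0.266 on the log2 scale, below the 0.268 of collagens and matrix. None of its 34 members passed even at unadjusted P (2.31% of all genes did), 11 lay above 0 and 23 below, and the median difference was −0.03 with a range from −0.45 (Ak4) to 0.19 (Ankrd37, an ankyrin repeat protein and HIF target). The median outer limit was 1.26-fold against 1.15-fold over all genes. Held within the narrow bound were 21 members, within 1.5-fold 28 and within 2-fold all 34. In 7 of 34 members (20.6%) the level was lower at μ-g in all 3 pairs of arrays with the same replicate number, beside 10.9% of all genes. Over the 39 lists this share ran from 0%, as in collagens and matrix, to 32.3% in cytosolic ribosomal proteins. It was 24.0% in glycolysis and 23.9% in cell cycle and mitosis, so it was not particular to the hypoxia list. The 6 members not held within 1.5-fold were Ak4, Car9, Ndufa4l2, Tmem45a, Bnip3 and Pdk1.

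The promoters of these 6 genes are shown because HIF acts through the core letters ACGTG or GCGTG, which were searched on both strands in the 250 bases before each start site of the RefSeq promoter table (GRCm38.p6). An ACGTG on one strand can overlap one on the other, as in a palindrome. The table had an entry for 5 of the 6, all but Ndufa4l2, and all 5 held a match in at least 1 promoter. Pdk1 had a match in 1 of its 2 promoters and Ak4 in 4 of 4. Of the 34 list genes 26 had an entry, and 25 of these (96.2%) held a match in at least 1 promoter, beside 41.5% of all 27025 genes of the table and 38.6% of its 32851 promoters. Each line gives the match nearest to the most upstream start site of the gene with its flanks, read 5′ to 3′ on the strand of the gene, with the core in capitals (CACGT and CACGC are the cores read on the opposite strand).
Ak4, chr4:101419241-101419269, plus strand: gcggcggcggtaGCGTGgagccggctccc
Car9, chr4:43506996-43507024, plus strand: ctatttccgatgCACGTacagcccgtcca
Tmem45a, chr16:56886313-56886341, minus strand: agaccccactgcCACGCagtgccacatca
Bnip3, chr7:138909525-138909553, minus strand: ggctccgccgccGCGTGcgtcccgccccg
Pdk1, chr2:71873134-71873162, plus strand: ccgcctacatggGCGTGtctttaaccagg
The Bnip3 window held 5 such matches and the Ak4 window 2, and a match is a description of the letters only.

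Ak4 was the gene with the outer limit farthest from no change. Its interval was not the widest, as that of Car9 ran from −0.89 to 0.79. Its log2 levels were 7.96, 8.39 and 7.55 at μ-g and 8.62, 8.61 and 8.02 at 1-g, so the groups overlapped. At 2-g they were 11.42, 11.40 and 11.25, and in the control 9.53, 10.47 and 9.34. Ak4 was lower at μ-g in each pair of arrays of the same replicate number, by a difference of −0.67, −0.22 and −0.47. The fitted difference was −0.45 (SE 0.28, n = 3 against 3, limma adjusted p = 0.9999), with a 95% interval from −1.06 to 0.15. Without μ-g replicate 2 the difference was −0.67 (limma unadjusted P = 0.0413) and without 1-g replicate 3 it was −0.65 (limma unadjusted P = 0.0497), both past the thresholds of the study, with limma adjusted p-values of 0.996 and 0.9999.

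The other 5 loosely held members showed small differences and wide intervals. Bnip3, a mitophagy receptor of the outer mitochondrial membrane, gave 9.70, 10.22 and 9.75 at μ-g and 10.07, 10.29 and 10.06 at 1-g, a difference of −0.25 (SE 0.22); replicate 2 at μ-g lay above 2 of the 1-g arrays. Pdk1, a kinase that inhibits pyruvate dehydrogenase, gave 7.51, 7.73 and 7.44 against 7.81, 7.93 and 7.47, a difference of −0.17 (SE 0.25). Tmem45a, a transmembrane protein induced by hypoxia, gave 8.30, 8.77 and 8.37 against 8.45, 8.86 and 8.59, a difference of −0.16 (SE 0.30). These 3 genes were lower at μ-g in all 3 same-numbered pairs, with overlapping groups in each case. Ndufa4l2, a HIF target that lowers complex I activity, gave 6.79, 7.07 and 6.94 against 7.12, 7.14 and 6.78, a difference of −0.08 (SE 0.34). Car9, the cell-surface carbonic anhydrase of hypoxic cells, gave 6.38, 6.48 and 6.14 against 6.48, 6.54 and 6.13, a difference of −0.05 (SE 0.39). For Ndufa4l2 and Car9 the replicates interleaved and no direction was shared by the 3 pairs.

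For most of these genes the arrays outside this comparison set much of the width, and for Ak4 a smaller part of it. The fit of 12 arrays shares one spread over the 4 groups, and the median SD of a hypoxia-list gene was 0.12 at μ-g, 0.12 at 1-g, 0.09 at 2-g and 0.24 in the control. Ak4 had an SD of 0.42 at μ-g, 0.35 at 1-g and 0.61 in the control. Car9 for example had an SD of 0.17 at μ-g, 0.22 at 1-g and 0.95 in the control, where its levels were 7.76, 9.01 and 7.15. When only the 6 arrays of μ-g and 1-g entered the fit, 33 of the 34 members were held within 1.5-fold, all but Ak4. The outer limit then went from 1.85- to 1.26-fold for Car9, from 1.78- to 1.27-fold for Ndufa4l2 and from 1.76- to 1.40-fold for Tmem45a. It went from 1.66- to 1.48-fold for Bnip3, from 1.64- to 1.38-fold for Pdk1 and from 2.08- to 1.98-fold for Ak4. With the replicate number as a block in the fit of 12 arrays the count was 33 as well, and the limit of Ak4 was 1.77-fold.

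**Figure D4:**
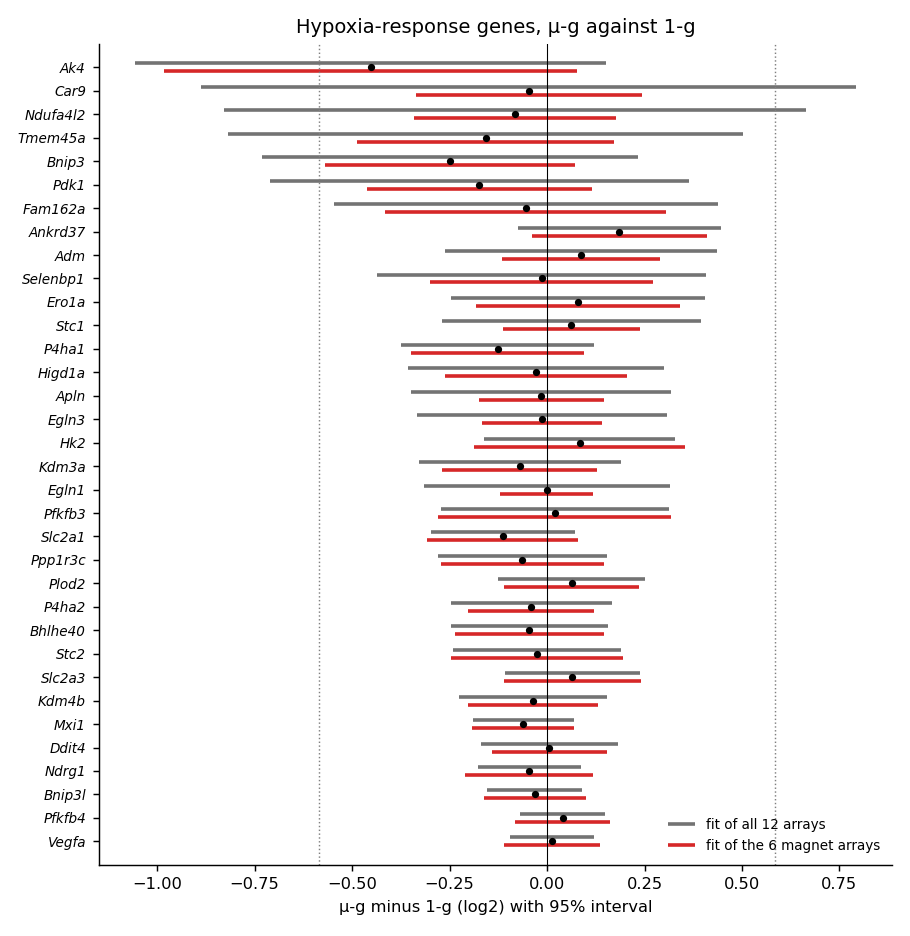
Difference between μ-g and 1-g (x axis, log2; black dot) with its 95% interval for each of the 34 hypoxia-response genes, from the fit of all 12 arrays (grey) and from the fit of the 6 magnet arrays alone (red); dotted lines mark 1.5-fold. Every interval contains 0, and the red intervals of Car9 and Ndufa4l2 are far narrower than the grey ones (1.26- against 1.85-fold and 1.27- against 1.78-fold).

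Other hypoxia genes lay closer to 0. Egln1, the main HIF prolyl hydroxylase and itself a HIF target, gave 9.43, 9.52 and 9.46 at μ-g and 9.47, 9.49 and 9.45 at 1-g. Its levels were 11.13, 11.08 and 11.01 at 2-g and 10.41, 10.67 and 9.86 in the control, so the μ-g and 1-g arrays sat together below all others. The difference was −0.00 (SE 0.15), Egln1 was held within the narrow bound, and the outer limit of 0.32 on the log2 scale became 1.09-fold in the 6 arrays alone. Egln3, the most strongly inducible of these hydroxylases, differed by −0.01 (SE 0.15) with an outer limit of 1.26-fold, the same as the median of the list. Vegfa, the angiogenic growth factor, differed by 0.01 (SE 0.05) with a limit of 1.09-fold, but it also differed by only 0.05 between 2-g and 1-g. Bnip3l, a paralog of Bnip3, differed by −0.03 (SE 0.06) with a limit of 1.11-fold.

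The same list shows how far these genes could move on these arrays. The median hypoxia-list gene stood 1.03 higher on the log2 scale at 2-g than at 1-g, and 0.34 lower than the control both at μ-g and at 1-g. The list was chosen with earlier results of these data known, so these medians are no independent check. These comparisons share arrays with each other and with μ-g against 1-g, so the values stand side by side only. Ndufa4l2 was 3.64 higher at 2-g than at 1-g (limma adjusted p = 0.000241). Against the control its difference was −2.12 at μ-g (limma adjusted p = 0.0257) and −2.04 at 1-g (limma adjusted p = 0.0391). Its difference between μ-g and 1-g, −0.08, was a small part of each of these.

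The oxygen sensing machinery upstream of that list was held within 1.5-fold in all 20 measured members, and within the narrow bound in 19. Hif1a, the oxygen-labile subunit, gave 12.73, 12.62 and 12.76 at μ-g and 12.65, 12.66 and 12.65 at 1-g, a difference of 0.05 (SE 0.05) with an outer limit of 1.11-fold. Epas1, which encodes the HIF-2 subunit, was the member farthest from 0. It gave 8.69, 8.75 and 8.66 at μ-g and 8.52, 8.59 and 8.54 at 1-g, with no overlap, and a difference of 0.15 (SE 0.06, limma unadjusted P = 0.0212, adjusted p = 0.9999) within an outer limit of 1.21-fold. Rbx1, a subunit of the ubiquitin ligase that removes HIF, had the widest limit of this list at 1.32-fold, with replicate 2 high in both groups (11.87 and 11.93).

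Of the lists of energy metabolism, glycolysis had wider limits than the other two. The narrow bound held 21 of 25 glycolysis genes beside 95.8% of all genes, and the median outer limit was 1.13-fold in the TCA cycle and 1.14-fold in the respiratory chain beside 1.15-fold over all genes. In glycolysis 24 of 25 genes were held within 1.5-fold, 9 lay above 0 and 16 below, and the median difference was −0.04. Ldha, the lactate dehydrogenase subunit with the highest level of the list, differed by −0.07 (SE 0.08) with a limit of 1.19-fold. Pgam2, a muscle-type phosphoglycerate mutase, was highest at 0.14, and the exception, Pdk1, was lowest at −0.17. All 38 respiratory chain genes were held within 1.5-fold, with 29 of 38 below 0 and a median of −0.03. Cox7a1, a cytochrome oxidase subunit of muscle type, was lowest at −0.16 (SE 0.17) and had the widest limit of that list at 1.45-fold. All 24 genes of the TCA cycle were held within 1.5-fold around a median of 0.01.

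Genes that were also chosen for qPCR, 12 in number, were all without a call. Beside Ak4, the lowest were Gpr35, a receptor for kynurenic acid, at −0.17 (SE 0.16), Cox7a1 at −0.16, Pfkl, the liver-type phosphofructokinase, at −0.13 (SE 0.16) and P4ha1, a collagen prolyl hydroxylase subunit, at −0.13 (SE 0.11). Gpr84, a receptor for medium-chain fatty acids, was at −0.07, Car9 at −0.05, Apln, the peptide apelin, at −0.02, Car12, a further carbonic anhydrase, at 0.01, and Stc1, the hormone stanniocalcin-1, at 0.06. Adm, the peptide adrenomedullin, was at 0.09 and Aldoc, the brain-type aldolase, at 0.09. Outer limits ran from 1.27-fold (Apln) to 2.08-fold (Ak4). That of Aldoc was 1.54-fold, although the less strict test held it within 1.5-fold. All of these limits hold for the array signal and not for the qPCR of the study. In that qPCR Apln was slightly above the control at μ-g and below it at 1-g. Ak4 was nearer the control at μ-g than at 1-g there, while Gpr35 and Pfkl were farther below it at μ-g.

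Genes of mechanical signalling were held within 1.5-fold, as were 99.8% of all genes. This covers all 20 measured targets of YAP, 15 genes of the YAP pathway core, 25 integrin and focal adhesion genes, 28 actin and contractile genes, 17 genes of microtubules and intermediate filaments, 18 of the primary cilium, 20 channels and nucleotide receptors and 9 connexins and pannexins. The 18 cilium genes, the 20 channel and receptor genes and the 9 connexins and pannexins were also all held within the narrow bound, which held 95.8% of all genes. At unadjusted P, 1 YAP target, 1 actin gene and 1 receptor passed, beside 2.31% of all genes.

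Among the YAP targets, the matricellular proteins Ccn1 and Ccn2 are the usual readouts. Ccn1 gave 10.56, 10.23 and 10.66 at μ-g and 10.67, 10.59 and 10.39 at 1-g, a difference of −0.07 (SE 0.15) with the widest limit of the list, 1.32-fold. Ccn2 gave 11.07, 11.13 and 11.16 against 10.98, 11.28 and 11.05, a difference of 0.02 (SE 0.10) with a limit of 1.17-fold. Both genes interleaved between the groups. Ankrd1, a stretch-responsive ankyrin repeat protein, differed by −0.01 (SE 0.16) with a limit of 1.28-fold. Ccn2 was 0.65 higher at 2-g than at 1-g (limma adjusted p = 0.00469), so it could be seen to move on these arrays. Rbms3, an RNA-binding protein, was the target with an unadjusted P under 0.05, at −0.14 (SE 0.06) and with overlapping groups. Yap1 itself differed by 0.01 (SE 0.05).

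The stretch-gated channel Piezo1 gave 12.43, 12.13 and 12.47 at μ-g and 12.47, 12.19 and 12.24 at 1-g, a difference of 0.04 (SE 0.12) with a limit of 1.24-fold. Replicate 2 was the lowest for Piezo1 in both groups. P2ry1, a receptor for extracellular ADP, was the receptor with an unadjusted P under 0.05. It gave 6.96, 6.96 and 6.90 against 6.87, 6.82 and 6.81, with no overlap, and a difference of 0.11 (SE 0.05, limma unadjusted P = 0.0456, adjusted p = 0.9999). Gja1 encodes connexin 43, the main gap junction protein of osteocytes, and differed by −0.01 (SE 0.08) with a limit of 1.14-fold. Gja4, a connexin of vessel walls, was lowest in its list at −0.15 (SE 0.09).

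Of the cytoskeleton, Actb differed by −0.01 (SE 0.04) with a limit of 1.07-fold. Tagln2, an actin-bundling protein, gave 11.95, 11.99 and 12.04 at μ-g and 12.09, 12.11 and 12.06 at 1-g, with no overlap and a difference of −0.09 (SE 0.04, limma unadjusted P = 0.0473, adjusted p = 0.9999). Mylk, the myosin light chain kinase, was highest at 0.13 (SE 0.08). Among integrins and their partners the range was from −0.06 (Vasp, a filament elongation factor) to 0.11 (Itga1, a collagen-binding integrin), and the widest limit was 1.32-fold for Itga3, a laminin-binding integrin. Map1b, a neuronal microtubule protein, had the widest limit of all these lists at 1.47-fold.

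Osteocyte products had no member past the adjusted test either. All 21 measured osteoblast and osteocyte markers were held within 1.5-fold and 20 within the narrow bound. Sost, which encodes sclerostin, gave 7.28, 7.33 and 7.27 at μ-g and 7.44, 7.32 and 7.08 at 1-g, a difference of 0.01 (SE 0.08) with a limit of 1.14-fold. Dmp1, a matrix phosphoprotein, differed by 0.09 (SE 0.09) at a mean level of 5.63. Fgf23, the phosphate-regulating hormone of osteocytes, was the highest of the list and 1 of 2 members of 21 with an unadjusted P under 0.05 and a higher level (1.37% of all genes). It gave 6.98, 7.06 and 6.86 against 6.76, 6.90 and 6.67, a difference of 0.18 (SE 0.08, limma unadjusted P = 0.0361, adjusted p = 0.9999) with overlapping groups and a limit of 1.28-fold. Fgf9, a growth factor, was the second, at 0.15 (SE 0.06).

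As a check of the cell type, the level of Sparc, an abundant bone matrix protein, was 13.0 as a mean over the 12 arrays. That of Pdpn, an early osteocyte marker, was 12.2, and 8 of the 21 markers lay in the highest tercile of all genes. The late markers Mepe, Phex and Dmp1 lay in the lowest tercile of all genes, together with 4 others of the 21, so a limit on them may be a limit on background signal. Markers of other cell types were held in the same way: 20 of 20 for macrophages, 14 of 14 for osteoclasts, 11 of 11 for adipocytes and 12 of 12 for endothelium within 1.5-fold. Among macrophage markers 13 of 20 lay in the lowest tercile of genes, with Adgre1 at 5.46 and Ptprc at 5.68, and the highest was at 9.64. The highest member stood at 13.2 among adipocyte markers, 12.5 among osteoclast markers and 8.02 among endothelial markers. In the highest tercile lay 4 of 14 osteoclast markers, so the level of single markers does not settle the cell type.

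Factors that osteocytes use to steer osteoclasts were held within 1.5-fold in all 19 measured members. Tnfsf11 encodes RANKL, which drives osteoclast formation, and gave 9.89, 9.93 and 10.17 at μ-g and 9.91, 9.93 and 10.28 at 1-g, a difference of −0.04 (SE 0.14). Replicate 3 was high for Tnfsf11 in both groups. Tnfrsf11b, its decoy receptor osteoprotegerin, differed by 0.05 (SE 0.08), and Csf1, the macrophage growth factor, by −0.02 (SE 0.05) with a limit of 1.09-fold. Il11, a cytokine of the IL-6 family, was lowest of this list at −0.11 (SE 0.12).

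Among inflammatory cytokines and chemokines 12 of 36 genes lay above 0 and 24 below, around a median of −0.03. S100a8, a calcium-binding alarmin of myeloid cells, was lowest and the single member with an unadjusted P under 0.05 (1 of 36, beside 0.938% of all genes lower at that level). It gave 8.94, 8.59 and 8.86 at μ-g and 9.20, 9.08 and 8.96 at 1-g, with no overlap, and a difference of −0.28 (SE 0.11, limma unadjusted P = 0.0266, adjusted p = 0.9999) with a limit of 1.44-fold. Il1a, the cytokine interleukin-1 alpha, was the member not held within 1.5-fold. It gave 7.51, 7.27 and 6.73 against 7.83, 7.29 and 7.06, in the same order of replicates in both groups, and its limit of 1.68-fold became 1.32-fold with the replicate block. Ptgs2, the prostaglandin synthase induced by load, differed by 0.04 (SE 0.06) with a limit of 1.13-fold, and Fos, an immediate early transcription factor, by −0.02 (SE 0.09).

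Sesn3, a sestrin that restrains growth signalling under stress, was the member of the p53 and sestrin list that stood out. It gave 8.72, 8.80 and 8.75 at μ-g and 8.52, 8.52 and 8.57 at 1-g, with no overlap, against 8.65, 8.54 and 8.75 at 2-g and 8.10, 8.20 and 8.11 in the control. The difference was 0.22 (SE 0.06, limma unadjusted P = 0.00218, adjusted p = 0.9999), and Sesn3 was still held within the narrow bound by the test (limma adjusted p = 0.0439). Against the control it was 0.61 higher at μ-g (limma adjusted p = 0.00132) and 0.40 higher at 1-g (limma adjusted p = 0.0272). Ccng1, a cyclin induced by p53, differed by 0.04 (SE 0.07) between μ-g and 1-g.

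**Figure D5:**
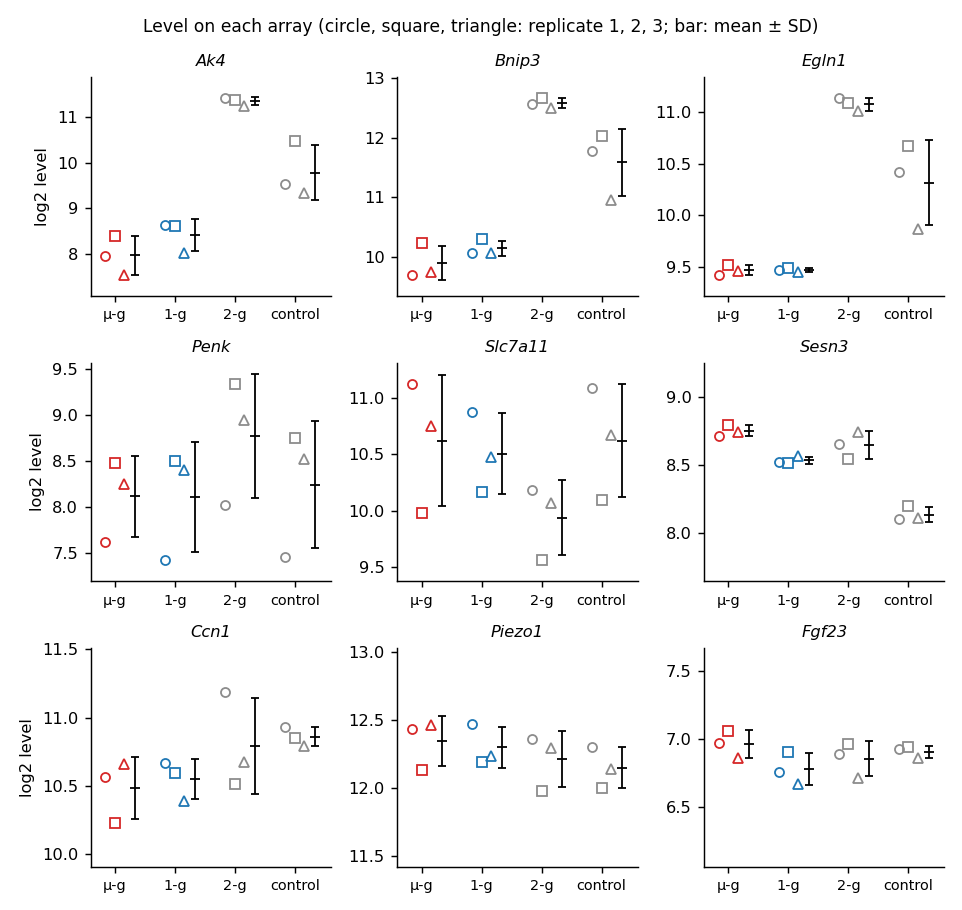
Log2 level (y axis) of 9 genes on each of the 12 arrays in the groups μ-g (red), 1-g (blue), 2-g and control (grey); circles, squares and triangles are replicates 1, 2 and 3, and the black bar beside each group is its mean ± SD (n = 3). The red and blue points overlap in 8 of the 9 genes and are separate for Sesn3, while Penk and Slc7a11 follow the replicate number in every group.

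Some large lists leaned to one side by a very small amount. Of 31 cytosolic ribosomal protein genes 25 lay below 0, with a median of −0.03 (all genes 0.01), and 10 of 31 (32.3%) were lower at μ-g in all 3 same-numbered pairs, beside 10.9% of all genes. The lowest member was Rps19, a small subunit protein, which gave 11.82, 11.87 and 11.87 against 12.04, 11.99 and 11.84, a difference of −0.10 (SE 0.06), lower in 2 of the 3 pairs. All 31 were held within the narrow bound, and the list had the lowest median outer limit of the 39, 1.12-fold. The list of collagens and matrix genes leaned the other way, with 28 of 36 genes above 0, a median of 0.05 and 7 of 36 higher in all 3 pairs (11.3% of all genes were). Its highest member was Mmp9, a gelatinase, at 0.17 (SE 0.12). Genes of such lists move together from array to array, so a count of members is not a count of independent observations.

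Growth and housekeeping lists were held much like genes at large. The narrow bound, which held 95.8% of all genes, held 46 of 46 cell cycle and mitosis genes, 36 of 36 of autophagy and the lysosome and 23 of 23 of mitochondrial biogenesis and dynamics. Cdk1, the mitotic kinase, had the widest limit of the cell cycle list at 1.29-fold. All 35 Wnt genes were held within 1.5-fold, with Nkd1, a feedback inhibitor of the pathway, highest at 0.20 (SE 0.08). Of 21 heat shock genes all were held within 1.5-fold, with Hspb1, a small chaperone, lowest at −0.21 (SE 0.17) and widest at 1.49-fold. The apoptosis machinery was held in 31 of 31 genes and the BMP and TGF-beta genes in 32 of 32. The list of NF-kB and innate receptor genes was held in 32 of 32 and the interferon response in 27 of 27.

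The 32 genes not held within 1.5-fold are those in which a change of that size was not excluded by the test. Some had wide intervals, and others, such as Dppa3, a larger difference. Of these, 14 lay above and 18 below 0, 3 had groups that did not overlap (Gzme, a granzyme protease, with Dppa3 and Selenbp2, a selenium-binding protein) and 1, Dppa3, had an unadjusted P under 0.05 (5.63% and 2.31% of all genes). Dppa3 gave 6.30, 6.10 and 6.31 at μ-g and 5.94, 5.69 and 5.84 at 1-g, a level in the lowest tercile of genes, with a difference of 0.42 (SE 0.12, limma unadjusted P = 0.00547, adjusted p = 0.9999). In 16 of the 32 the control was the group with the largest SD, a share that was not computed over all genes. With the replicate block the outer limit came under 1.5-fold for 20 of the 32, and in the 6 arrays alone for 9.

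Several of the 32 followed the replicate number across all 4 groups. Penk, the precursor of the enkephalin peptides, gave 7.63, 8.48 and 8.25 at μ-g and 7.42, 8.51 and 8.40 at 1-g. Replicate 1 of Penk was the lowest in the other two groups too, at 8.03 at 2-g and 7.46 in the control. Its difference was 0.01 (SE 0.41), and the outer limit of 1.87-fold became 1.15-fold with the block. Slc7a11, a cystine importer controlled by ATF4 and NRF2, gave 11.12, 9.98 and 10.75 against 10.88, 10.16 and 10.48, with replicate 2 lowest in every group. Its limit of 1.72-fold became 1.24-fold with the block. Lbp, an acute-phase protein that binds lipopolysaccharide, gave 9.83, 10.42 and 10.74 against 9.63, 10.22 and 10.73, and its limit went from 1.83- to 1.27-fold. Hspb7, a small heat shock protein of muscle, went from 1.78- to 1.29-fold.

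A further 5 of the 32 were small RNA genes (Mir680-2, Snora31, Mir15b, Rny1 and Rny3). Rny1 and Rny3, the Y RNAs of Ro particles, were lowest on replicate 2 of 1-g, where they gave 7.80, 6.54 and 7.94 and 13.60, 12.25 and 13.33. Replicate 2 was also the lowest for Rny3 in each of the other groups, and for Rny1 in the control. Snora31, a small nucleolar RNA, gave 8.69, 7.36 and 8.65 at 1-g and 8.45, 8.26 and 8.60 at μ-g, lowest on the same array. Without 1-g replicate 2 Rny1 differed by −0.60 (limma unadjusted P = 0.0073, adjusted p = 0.9997), while the difference with all arrays was −0.15 (SE 0.30). Olfr767, an olfactory receptor, had the tenth widest limit of all genes, 1.77-fold.

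The genes with the lowest unadjusted P and groups that did not overlap had small differences, most of them at levels in the lower range of the arrays. Above 0 the first were Wfdc6a, a secreted protease inhibitor, at 0.36 (SE 0.07, limma unadjusted P = 0.000144, adjusted p = 0.9999) with 5.90, 5.90 and 5.87 at μ-g and 5.61, 5.61 and 5.37 at 1-g, and Alppl2, a germ-cell type alkaline phosphatase, at 0.28 (SE 0.06). Kcnk7, a member of the K2P channel family, was at 0.25 (SE 0.05) with 6.88, 6.90 and 6.80 against 6.62, 6.60 and 6.63. The others of the 10 were Sstr3, Gm10648, Cd177, Sesn3, Ppp1r1b, Grm8 and Ttc38, between 0.19 and 0.27. Below 0 they were A430057M04Rik at −0.29 (SE 0.07), Ccdc28a at −0.24 (SE 0.06), Olfr967, Gtpbp8, Cyb5r2, 0610040B10Rik, Pla2g2a, Gpr183, Olfr738 and Olfr796, the last at −0.19. Ccdc28a, a coiled-coil protein, gave 8.02, 8.14 and 8.25 at μ-g and 8.34, 8.48 and 8.31 at 1-g. None of these 20 passed at adjusted p, and each was held within 1.5-fold.

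Beside the other pairs of groups in the same fit, μ-g against 1-g was the pair with no call. At adjusted p 87 genes rose and 77 fell at μ-g against the control (0.823% of genes in all), and 35 rose and 29 fell at 1-g against the control (0.321%). Between μ-g and 2-g 276 were higher and 298 lower at μ-g (2.88%), between 2-g and 1-g 251 were higher and 200 lower at 2-g (2.26%), and 335 rose and 285 fell at 2-g against the control (3.11%). Held within the narrow bound were 19109 genes in μ-g against 1-g, and between 16610 (μ-g against 2-g) and 17486 (1-g against control) in the other 5 pairs. The SD of the difference over all genes was 0.06 on the log2 scale for μ-g against 1-g and between 0.11 and 0.16 for the others. These pairs share arrays and are not independent of each other.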

How the data were processed

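Affymetrix Mouse Gene ST arrays measured the RNA of MLO-Y4 cells. RMA was applied to the intensities by the authors, and the deposited log2 values cover 28856 transcript clusters on 12 arrays. Gene symbols came from the platform annotation, updated through the RefSeq gene table: 21789 clusters had 1 symbol, 1621 several and 5446 none. The 19938 genes with 1 symbol were counted, and 999 with several clusters were represented by their brightest cluster, judged by its mean of 12 arrays. Group means were fitted for all clusters and arrays in limma 3.58.1 in R 4.3.3 (8 residual and 3.90 prior degrees of freedom), and adjusted p-values are Benjamini-Hochberg over the 19938 genes. Intervals are 95% intervals of the same fit. The number of arrays limits the precision, and the lowest two-sided p of an exact permutation test of 3 against 3 is 0.1. The script was tested on simulated data.

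Arrays of the same replicate number at μ-g and 1-g deviated together from their group means (r = 0.379, 0.294 and 0.261 over genes). Samples of the same number were therefore also compared pair by pair, and a fit with the number as a block was run as an alternative. The main fit, which gave the counts, limits and p-values unless another fit is named, does not pair the samples. The pairing comes from the values, as no label explains the numbers. The genes named are the 10 genes per direction of lowest P with groups that do not overlap, genes past the thresholds of the study, the 12 genes also chosen for qPCR, up to 4 members of each list (highest, lowest, widest limit, highest level), 20 load and oxygen genes, and the 10 widest limits; further genes named among the 32 not held within 1.5-fold, and further members of lists, were chosen after their values were seen. The comparison, the lists and the rule were chosen with earlier results of these data known. No list was tested as a set.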

Additional observations from a re-analysis of the deposited data

How the results depend on the processing

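The counts, limits, lists and named genes of μ-g against 1-g were computed again under 21 alternatives: the 6 arrays alone, the replicate block with 12 or 6 arrays, genes above the median level, arrays centred on their medians, quantile normalization, an intensity trend with a robust prior, the mean of a gene's clusters, all transcript clusters, and leaving out each of the 12 arrays. No gene was called at adjusted p under any of them, and the lowest adjusted p was 0.156, without 1-g replicate 1. Genes at unadjusted P, 460 as reported, numbered 784 with the replicate block, 97 among genes above the median level, 732 among all transcript clusters, and 385 to 771 when 1 array was left out, the highest without μ-g replicate 2. The outer limit of the 99th percentile gene, 0.477 on the log2 scale, was 0.381 with the replicate block, 0.383 in the 6 arrays with the block, and 0.471 to 0.587 when 1 array was left out (0.587 without μ-g replicate 2 and 0.576 without 1-g replicate 1). Genes lower past the thresholds of the study, 0 as reported, numbered 1 among all transcript clusters, a cluster that stands for none of the 19938 genes, and 0 to 1 when 1 array was left out, namely Ak4 without μ-g replicate 2 or 1-g replicate 3 and Rny1 without 1-g replicate 2. Genes not held within 1.5-fold, 32 as reported, numbered 8 with the block, 20 in the 6 arrays, 166 among all transcript clusters (where the widest limit was 14.6-fold, beside 2.08-fold for genes), and 25 to 91 when 1 array was left out (91 without 1-g replicate 1, 90 without μ-g replicate 2, 82 without 1-g replicate 3, 76 without μ-g replicate 1, 75 without μ-g replicate 3 and 73 without 1-g replicate 2). The widest limit of a gene was 2.47-fold when 1 array was left out, for Ak4 without μ-g replicate 2 or without 1-g replicate 3. Hypoxia genes held within 1.5-fold, 28 as reported, numbered 31 without control replicate 2 and 32 without control replicate 3. The cause of these shifts was not tested, beyond that leaving out an array leaves fewer samples. The share of genes above 0 was 53.5% as reported, 50.9% with centred arrays, 52.2% with quantile normalization, 45.8% without 1-g replicate 3 and 60.4% without 1-g replicate 2, so the lean of a list by 0.05 or less should be read beside that. Over the settings that keep gene names the median of the ribosomal list stayed between −0.05 and −0.02, that of collagens and matrix between 0.02 and 0.07, and that of the hypoxia response between −0.06 and 0.01. The block changed no call. All 184 named genes stayed uncalled wherever they were tested, and the sign of an uncalled difference changed in 151 of 3634 recomputed values. The absence of calls is bounded by 3 arrays per group, and no depth or detection call comes with the table.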
